A study of Mus musculus with 6 samples.

Results

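The genes described here are 10 immunoglobulin-type cell adhesion molecules of mouse: Mcam, Alcam, Bcam, Cntn1, Cntn2, L1cam, Nrcam, Ncam1, Cadm1 and Icam1. They were taken by symbol from the 48526 genes in the count tables, and all 10 passed the filter on low counts. RNA was sequenced from primary cultures of mouse renal tubular epithelium, grown from kidney cortex digested with liberase, of mice aged 4 to 5 weeks, in medium with 20 ng/ml EGF and 100 nM hydrocortisone. The 3 KO cultures came from Setd2(F/F)Ksp-Cre+ mice and the 3 WT cultures from littermate Setd2(F/F) mice. All cultures thus share the floxed alleles and the KO cultures alone carry Cre, so what Cre does and what loss of Setd2 does cannot be told apart. Ksp-Cre is driven by the promoter of Cdh16, a cadherin gene of kidney tubule epithelium, and Setd2 encodes a histone methyltransferase that acts on transcribed genes. The comparison asks which transcripts differ between Cre-positive and Cre-negative cultures. The labels do not say that each replicate is a separate animal, so the spread between libraries may in part be technical.

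Adhesion molecules of this family carry immunoglobulin domains outside the cell and bind either the same molecule on a neighbouring cell, another family member, an integrin or the matrix. Mcam (CD146) is known from endothelium, pericytes and smooth muscle, and Alcam (CD166) and Bcam (the Lutheran antigen, a laminin receptor) share its general domain plan. Contactins are held in the membrane by a lipid anchor and are best known from axons. L1cam and Nrcam are transmembrane proteins that bind ankyrins inside the cell, and L1cam is also known from the ureteric bud and collecting duct. Ncam1 is found in the nephron-forming mesenchyme of the developing kidney, and Icam1 is a leukocyte ligand that inflammatory signals induce in injured tubules.

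The 6 libraries held 86078636 to 106974842 counted reads each. Epithelial markers were abundant. The keratin gene Krt8 averaged 2593 ± 59.8 CPM (counts per 1000000, with TMM-scaled library sizes) in KO and 2587 ± 314.4 CPM in WT, and the cadherin gene Cdh16 averaged 884 ± 60.2 CPM in KO and 735 ± 22.4 CPM in WT (SD, n = 3 each). The proximal tubule genes Slc34a1, Slc5a2 and Slc22a6 were at or below 0.038 CPM in the mean of either group, so these transporters of the mature segment were almost absent from the cultures. Setd2 averaged 158.5 ± 4.86 CPM in KO and 168.1 ± 16.3 CPM in WT (SD, n = 3 each), and gene-level counts do not check a deletion of single exons. Xist, which female cells transcribe from the silenced X chromosome, stood at 507 and 606.5 CPM in KO replicates 2 and 3 and below 1 CPM in KO replicate 1 and in all WT libraries. Xist-positive libraries thus occurred in KO only. A fit with a term for them (the Xist term) or without them rests the difference on KO replicate 1 alone, whose spread is assumed to be that of the other libraries in the fit.

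The 10 genes were chosen with the difference between KO and WT in these same libraries known, so their values are given as a description, with no p-value. Mcam and Cntn2 ranked 65 and 52 from the lowest fold change among the 17571 genes tested. Mcam (ENSMUSG00000032135, mm10 chromosome 9, 44134469 to 44142727, plus strand) was at 11.9, 13.1 and 13.1 CPM in KO replicates 1 to 3, against 27.1, 30.5 and 34.6 CPM in WT replicates 1 to 3. The highest KO library was below the lowest WT library, and the KO libraries lay closer together than the WT libraries. The means were 12.7 ± 0.699 CPM in KO and 30.7 ± 3.75 CPM in WT, a log2 fold change of -1.28 ± 0.10 (SE), or 0.413 of the WT level. Fewer cells that make a transcript and less of it per cell cannot be told apart in such bulk libraries.

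Cntn2 (contactin 2, also called TAG-1; ENSMUSG00000053024, chromosome 1, 132509427 to 132543256, minus strand) was at 12.7, 15.2 and 14.1 CPM in KO, against 31.8, 35.1 and 40.7 CPM in WT. Its groups were likewise separate, with means of 14.01 ± 1.27 CPM in KO and 35.9 ± 4.50 CPM in WT and a log2 fold change of -1.36 ± 0.11. Cntn1 (contactin 1; ENSMUSG00000055022, chromosome 15, 92051165 to 92341967, plus strand) went the other way, at 5.33, 3.18 and 3.75 CPM in KO against 2.07, 1.73 and 1.38 CPM in WT. Each KO library was above every WT library, and KO replicate 1 was the highest. The log2 fold change of Cntn1 was 1.24 ± 0.21, a 2.37-fold difference at a low level that rests on 133 to 184 reads in each WT library.

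The 2 contactins thus drew closer in abundance in the KO cultures. Per kilobase of merged exons, Cntn2 exceeded Cntn1 2.42, 4.86 and 3.82 times in KO replicates 1 to 3 and 15.6, 20.6 and 30.0 times in WT replicates 1 to 3. Mcam, by contrast, kept a near-constant proportion to Cntn2. The ratio of Mcam to Cntn2 per kilobase was 2.60, 2.38 and 2.58 in KO, against 2.37, 2.41 and 2.36 in WT. The Cntn2 to Cntn1 ratios of the groups did not overlap and were widely apart, whereas the Mcam to Cntn2 ratios spanned a narrow range in which KO replicate 2 lay among the WT values.

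The sequences before the annotated starts of Mcam, Cntn2 and Cntn1 are shown because the first 2 were lower in KO by a like amount and the third was higher. RefSeq promoter windows on GRCm38.p6 were held for 8 of the 10 genes, not for Ncam1 and Cadm1. Each sequence below is the 250 bases before a RefSeq start, read 5′ to 3′ on the gene's strand, and capitals mark the GC box letters GGGCGG and the cyclic AMP response element (CRE) letters TGACGTCA on either strand.
Mcam, chr9:44134408-44134657, plus strand: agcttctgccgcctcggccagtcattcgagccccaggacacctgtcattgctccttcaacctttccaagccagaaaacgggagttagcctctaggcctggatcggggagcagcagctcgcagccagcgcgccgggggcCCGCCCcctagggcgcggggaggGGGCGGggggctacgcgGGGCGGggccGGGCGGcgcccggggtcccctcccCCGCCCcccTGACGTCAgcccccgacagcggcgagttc
Cntn2, chr1:132542941-132543190, minus strand: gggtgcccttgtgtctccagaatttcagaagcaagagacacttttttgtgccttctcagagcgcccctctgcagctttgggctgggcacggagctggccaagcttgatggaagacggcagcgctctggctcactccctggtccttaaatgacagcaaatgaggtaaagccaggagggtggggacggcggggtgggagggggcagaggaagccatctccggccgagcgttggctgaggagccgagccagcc
Cntn1, chr15:92050915-92051164, plus strand: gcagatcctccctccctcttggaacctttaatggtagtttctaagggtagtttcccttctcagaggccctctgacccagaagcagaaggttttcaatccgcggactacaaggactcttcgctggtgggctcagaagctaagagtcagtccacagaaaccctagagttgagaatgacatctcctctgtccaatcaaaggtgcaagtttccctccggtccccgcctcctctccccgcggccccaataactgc
GENCODE places the start of Mcam inside the printed Mcam window and that of Cntn2 upstream of the printed Cntn2 window, so its gene models transcribe part of the first stretch and all of the second. The Mcam window was 73.6% G or C with 25 CpG dinucleotides, the Cntn2 window 61.2% with 10 and this Cntn1 window 53.6% with 7. The GC box letters stood at 5 places in the Mcam window, none of which overlaps another or the CRE letters, and at no place in the other 2 windows. At least 1 GC box match was present in 32.7% of all 32851 RefSeq windows of this length and in 5 of the 8 genes with windows (Mcam, Alcam, L1cam, Nrcam and Icam1). The CRE letters occurred in the Mcam window, in no other window of the 8 genes and in 1.55% of all windows. The AP-1 letters TGANTCA, present in 6.75% of all windows, and the E-box letters CACGTG, present in 6.02%, were found in none of the 8 genes' windows. The Cntn2 window held none of the letters searched for, those of the CRE and GC box included, so it could share none with the Mcam window. Whether these sequences bear on the levels of the genes was not tested.

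**Figure D1:**
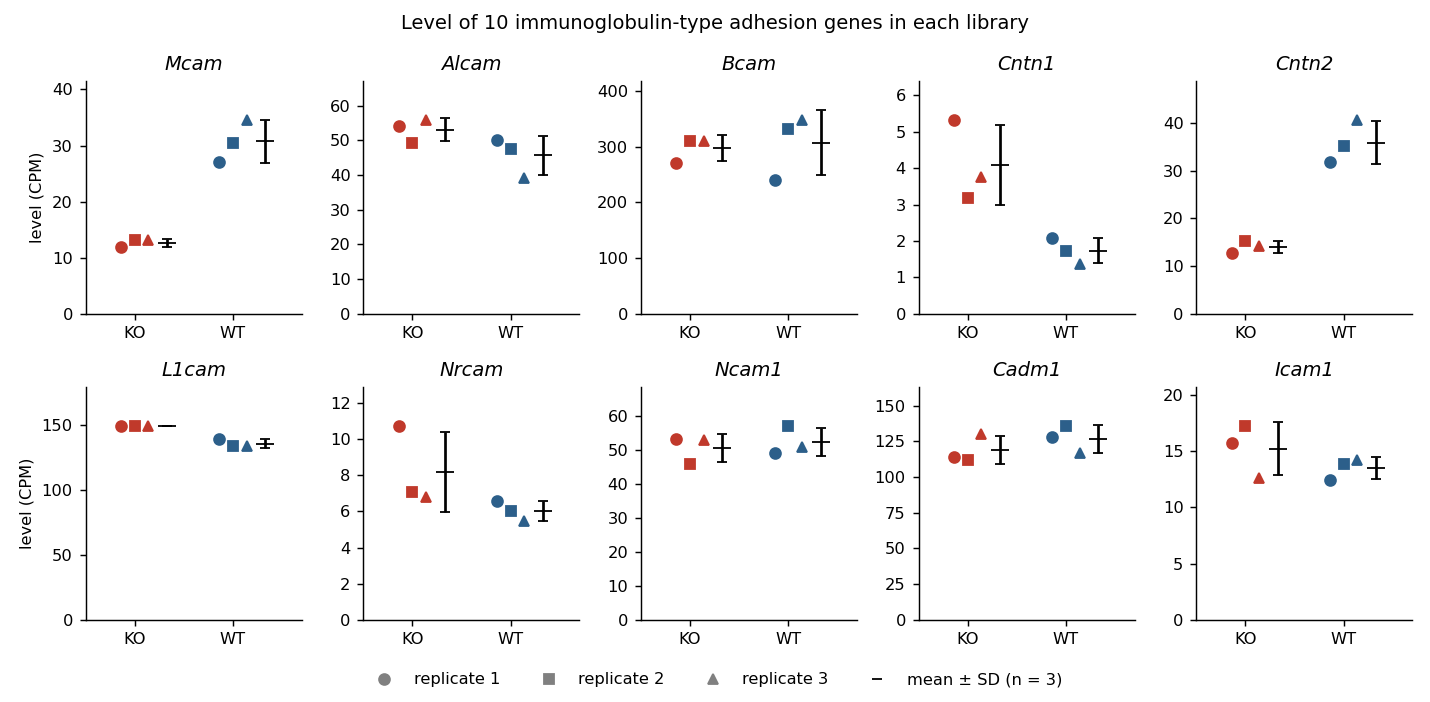
Level of each of the 10 adhesion genes in every library, in CPM on linear axes that start at 0, with KO left of WT in each panel, symbols for replicates 1 to 3 and a black bar for the mean ± SD (n = 3). Mcam and Cntn2 sit at 11.9 to 15.2 CPM in KO and 27.1 to 40.7 CPM in WT, Cntn1 is higher in every KO library, and the remaining panels show small shifts.

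Alcam and Bcam, the nearest in domain plan to Mcam, had overlapping groups and log2 fold changes closer to 0. Alcam (ENSMUSG00000022636, chromosome 16) was at 54.2, 49.3 and 56.0 CPM in KO, against 50.2, 47.6 and 39.3 CPM in WT, and the lowest KO library was below the highest WT library. The log2 fold change of Alcam was 0.22 ± 0.10. Bcam (ENSMUSG00000002980, chromosome 7), the most abundant of the 10 also per length, was at 270, 310 and 311 CPM in KO, against 240.5, 332 and 348 CPM in WT. WT replicate 1 was the low library of its group for Bcam, and the groups overlapped widely, with a log2 fold change of -0.05 ± 0.12. Per kilobase, Mcam stood at 0.466, 0.564 and 0.497 times Alcam in KO and at 1.147, 1.36 and 1.87 times Alcam in WT, so the order of the 2 genes differed between the groups in every library.

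L1cam (ENSMUSG00000031391, X chromosome) was at 149.4, 149.3 and 149.3 CPM in KO, against 139.5, 134 and 134 CPM in WT. All KO libraries were above all WT libraries, but the difference was small, with a log2 fold change of 0.14 ± 0.07 (1.10-fold). KO replicate 1 and the 2 Xist-positive libraries were nearly equal, and the gene lies on the X chromosome. L1cam shares 100 exon bases on its own strand with Arhgap4, which averaged 0.838 CPM in KO and 0.524 CPM in WT. Nrcam (ENSMUSG00000020598, chromosome 12), its relative, was at 10.7, 7.07 and 6.78 CPM in KO, against 6.60, 6.03 and 5.45 CPM in WT. The Nrcam difference leaned on KO replicate 1: the log2 fold change was 0.44 ± 0.17 with all libraries, 0.22 without KO replicate 1, and 0.83 once the Xist-positive libraries had a term.

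Ncam1 (ENSMUSG00000039542, chromosome 9) was at 53.2, 45.8 and 52.9 CPM in KO, against 49.0, 57.2 and 51.0 CPM in WT. Cadm1 (ENSMUSG00000032076, chromosome 9), a homophilic adhesion molecule of epithelia, was at 113.8, 112 and 130.1 CPM in KO, against 128, 136 and 117 CPM in WT. For each of these genes the KO and WT ranges overlapped, and the log2 fold changes were -0.05 ± 0.09 for Ncam1 and -0.10 ± 0.08 for Cadm1. Icam1 (ENSMUSG00000037405, chromosome 9) was at 15.7, 17.2 and 12.6 CPM in KO, against 12.4, 13.8 and 14.2 CPM in WT, again overlapping, with a log2 fold change of 0.17 ± 0.12. Ncam1 and Icam1 share 417 and 511 exon bases with gene models on the opposite strand, Gm11149 and Gm47079. Mcam and Bcam share 17 and 52 such bases with Gm10687 and Gm26600. Whether the counting used strand is unknown. Gm11149 was at 0.0647 CPM in KO and 0.0581 CPM in WT, Gm10687 at 0.0431 CPM in KO and 0.0999 CPM in WT, and Gm26600 at 0.143 CPM in KO and 0.222 CPM in WT. Gm47079 was not matched in the count tables, so no value stands beside Icam1.

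Of the 10 genes, 3 were past the threshold of edgeR's quasi-likelihood test (adjusted p below 0.05 over 17571 genes): Cntn1 was higher, and Mcam and Cntn2 were lower. Over all tested genes, 21% were past it, with 12% higher and 9.08% lower, and since the choice of genes used this contrast the count of 3 is a description only. The KO and WT ranges were separate in 5 of the 10 (Mcam, Cntn1, Cntn2, L1cam and Nrcam), against 41.9% of all tested genes. In 3 of these KO lay above WT (20.6% of all tested genes) and in 2 below (21.3%). The median log2 fold change was 0.04 over the 10 and -0.01 over all tested genes. Summed over the 10 genes, the level was 697 to 749.5 CPM in KO and 688 to 794 CPM in WT.

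The fold changes of Mcam, Cntn2 and Cntn1 stayed on their side of the threshold in each of 16 alternatives of scaling, filter, tool, replicate block and libraries. The genes were chosen with this contrast known and the alternatives reuse the same libraries, so this is a description and no independent support. Mcam ranged from -1.37 to -1.19, Cntn2 from -1.50 to -1.26 and Cntn1 from 1.024 to 1.63 on the log2 scale. The lowest Cntn1 value was obtained without KO replicate 1 and the highest with the Xist term. Nrcam was past the threshold in 5 of the 16 alternatives and Alcam in 1, while Bcam, L1cam, Ncam1, Cadm1 and Icam1 were past it in none.

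**Figure D2:**
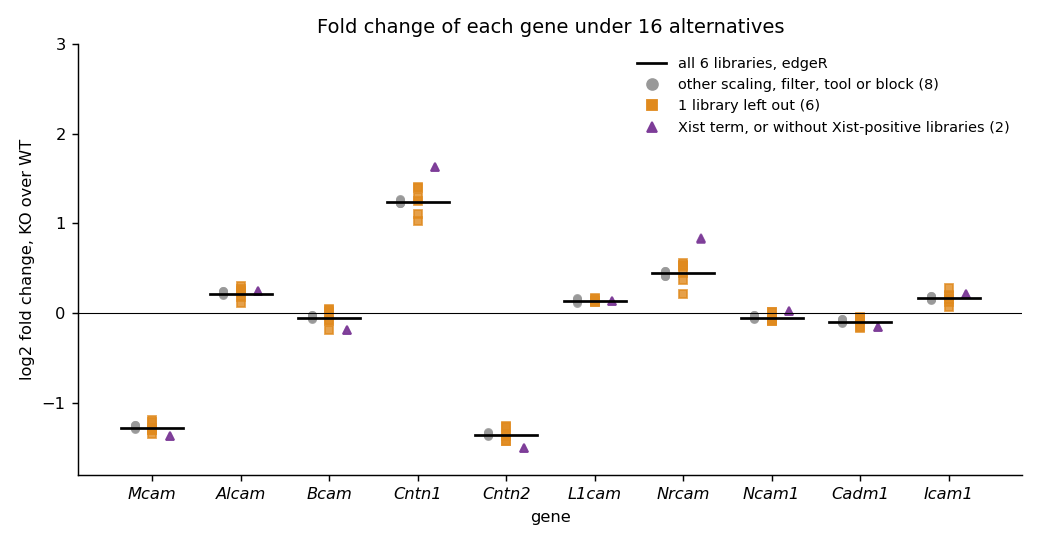
Log2 fold change (KO over WT, linear axis) of each adhesion gene in the fit with all 6 libraries (black line) and under 16 alternatives, with grey circles for 8 changes of scaling, filter, tool or block, orange squares for 6 fits without 1 library and purple triangles for 2 treatments of the Xist-positive libraries. Mcam and Cntn2 stay between -1.50 and -1.19, Cntn1 stays above 1, and Nrcam spreads from 0.22 to 0.83.

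By level per length the 10 genes formed a wide ladder. Bcam led with 92.8 ± 7.27 CPM per kilobase of merged exons in KO and 95.96 ± 18.2 in WT. L1cam followed at 20.3 CPM per kilobase in KO and 18.5 in WT, then Cadm1 at 11.4 in KO and 12.2 in WT. In WT, Mcam had rank 4 at 9.17 ± 1.12 CPM per kilobase, above Alcam at 6.42 ± 0.80 and Ncam1 at 6.05 ± 0.49, whose ranges overlapped each other but not that of Mcam. In KO, Mcam had rank 6 at 3.79 ± 0.21 CPM per kilobase, below Alcam and Ncam1, and its range overlapped that of Icam1 at 3.49 ± 0.54. Cntn2 changed places with Icam1: it had rank 8 in KO at 1.51 ± 0.14 and rank 7 in WT at 3.86 ± 0.48 CPM per kilobase. Nrcam and Cntn1 were lowest in both groups, at 0.613 and 0.433 CPM per kilobase in KO, where their ranges overlapped, and at 0.451 and 0.183 in WT, where they did not. Merged exons pool all isoforms, so these levels understate a gene that uses short isoforms.

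**Figure D3:**
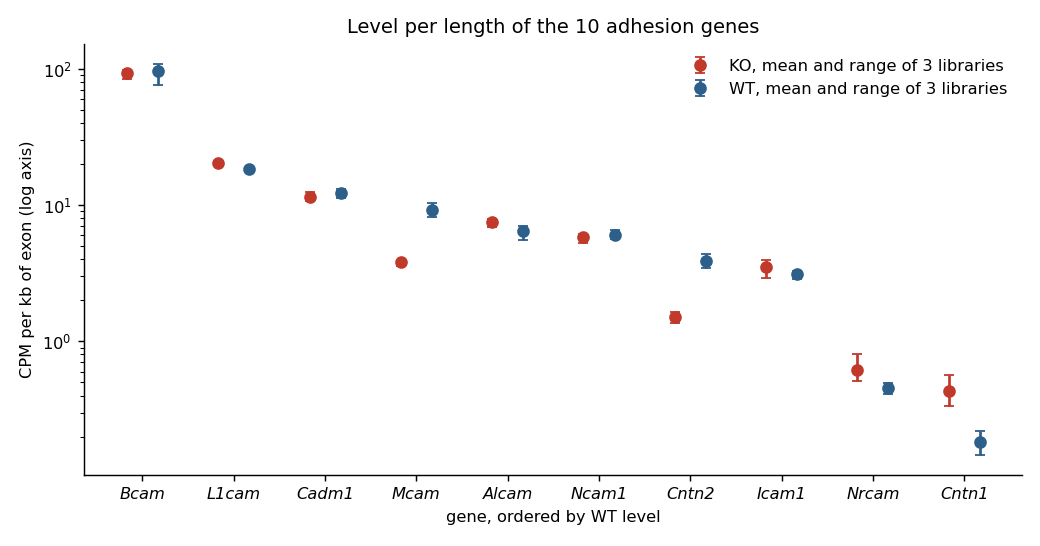
Level per kilobase of merged exons on a log axis for the 10 adhesion genes, ordered by WT level, with KO left of WT and points and bars for the mean and the range of 3 libraries. The KO points of Mcam (3.79) and Cntn2 (1.51) lie below their WT points (9.17 and 3.86), and Cntn1 (0.433 in KO and 0.183 in WT) and Nrcam (0.613 in KO and 0.451 in WT) lie above theirs.

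Spread between libraries also differed among the genes. In WT the coefficient of variation ran from 2.36% for L1cam to 20.1% for Cntn1, and in KO it was 27.2% for Cntn1 and 26.8% for Nrcam, in both of which KO replicate 1 was the high library. WT replicate 1 was the lowest WT library for Mcam, Bcam, Cntn2, Ncam1 and Icam1 and the highest for Alcam, Cntn1, L1cam and Nrcam. The genes also differed in size and place. Mcam, Ncam1, Cadm1 and Icam1 lie on chromosome 9, which also holds Setd2, and among these 4 only Mcam differed by more than 0.17 on the log2 scale. The 5 genes that span more than 200 kb (Alcam, Cntn1, Nrcam, Ncam1 and Cadm1) had log2 fold changes from -0.10 to 1.24, and the 5 shorter ones from -1.36 to 0.17.

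The genes whose pattern over the 6 libraries lay nearest to Mcam were chosen by the root mean square difference of centred log2 CPM among 11654 named genes of at least 1 CPM. Cntn2 was the nearest of all, at 0.06 log2 units, and Mcam was likewise the nearest to Cntn2. After Cntn2 came the kinase gene Brsk1 at 0.14, the ciliogenesis factor gene Foxj1 at 0.15 and the collagen gene Col12a1 at 0.15. Foxj1 averaged 26.9 CPM in KO and 56.4 CPM in WT, and Col12a1 averaged 40.4 CPM in KO and 89.2 CPM in WT. After Mcam, the nearest to Cntn2 were the aggrecanase gene Adamts5 at 0.16, the prostaglandin D synthase gene Ptgds at 0.17 and Ltbp2, which encodes a latent TGF-beta binding protein, at 0.17. With 2 groups of 3 libraries this measure mostly ranks genes by a like difference between KO and WT.

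Relatives of the 10 genes changed in both directions. Of 61 other immunoglobulin-type adhesion genes, 38 were tested, and edgeR's quasi-likelihood test called 9 higher and 5 lower in KO. That is 36.8% of those tested, against 21% of all tested genes, with a median log2 fold change of 0.14. Without KO replicate 1 the counts were 7 higher and 2 lower, and with the Xist term they were 6 higher and 0 lower. Of the calls over all tested genes, 73% were higher without KO replicate 1 and 75.5% with the Xist term. With all libraries and no such term that share was 56.8%. Calls over all genes leaned to higher without the Xist-positive libraries also. They also became fewer, from 3698 with all libraries to 1683 without KO replicate 1. With the Xist term and without the Xist-positive libraries they were fewer still. One-sided counts from these fits, here and below, stand beside that lean and are not particular to a list. A smaller count in a list likewise stands beside the general loss of calls. Of all 53 genes named by rule from the lists of relatives, partners and markers, 26 were no longer called without the Xist-positive libraries and 15 without at least 1 single library.

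Axonal relatives of the contactins and L1 were at low levels. Cntn4, the highest of them, averaged 1.86 ± 0.32 CPM in KO and 1.49 ± 0.55 CPM in WT, near the WT mean of Cntn1 (1.73 CPM). It was not called (log2 fold change 0.325 ± 0.24, edgeR adjusted p = 0.357). Of Cntn3, Cntn4, Cntn5, Cntn6, Chl1, Nfasc and Ncam2, 3 were tested and 1 was called higher, where 12% of all tested genes were. Nfasc (neurofascin, a partner of contactin 1) averaged 0.354 ± 0.085 CPM in KO and 0.171 ± 0.030 CPM in WT, a log2 fold change of 1.04 ± 0.31 with an edgeR adjusted p of 0.0331. That call ended on leaving out any of the 6 libraries, with log2 fold changes from 0.82 to 1.17, and with DESeq2, and its adjusted p was 0.314 with the Xist term and 0.395 without the Xist-positive libraries. Cntn6 had no read in any library.

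Of 6 tested genes in the list of nectins, which pair with each other across epithelial junctions, and other Cadm genes, 1 rose, 1 fell and 4 were not called (33.3% called, against 21% of all tested genes). Nectin1 averaged 15.1 ± 0.113 CPM in KO and 8.22 ± 1.20 CPM in WT, a log2 fold change of 0.87 ± 0.11 (edgeR adjusted p = 0.000553). Nectin3 averaged 88.2 ± 4.68 CPM in KO and 112 ± 7.86 CPM in WT, a log2 fold change of -0.34 ± 0.08 (adjusted p = 0.0103). The Nectin3 call ended without KO replicate 1, and its adjusted p was 0.06 with the Xist term and 0.118 without the Xist-positive libraries.

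Among 13 tested relatives of the junctional adhesion molecules, 2 rose, 2 fell and 9 were not called (30.8% called, against 21% of all tested genes). Gpa33, which encodes an intestinal epithelial surface antigen, averaged 10.6 ± 1.82 CPM in KO and 4.91 ± 0.642 CPM in WT (log2 fold change 1.11 ± 0.14, edgeR adjusted p = 0.000506). Igsf11, a homophilic adhesion gene, averaged 50.6 ± 5.05 CPM in KO and 31.9 ± 2.11 CPM in WT (0.66 ± 0.09, adjusted p = 0.000803). The adhesion genes Mpzl3 and Mpzl1 were lower, with log2 fold changes of -0.32 and -0.28, and edgeR adjusted p-values of 0.0239 and 0.0242. The Mpzl3 call ended without KO replicate 1 and without KO replicate 3, and that of Mpzl1 without any library except WT replicate 1. With the Xist term their adjusted p-values were 0.279 and 0.12, and without the Xist-positive libraries 0.329 and 0.213.

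The closest relatives of Icam1 were near the limit of detection: Icam2, Icam4 and Icam5 each averaged at most 0.119 CPM in KO and 0.0528 CPM in WT and were not tested. Vcam1, a ligand of leukocyte integrins, averaged 17.2 ± 0.302 CPM in KO and 23.3 ± 0.621 CPM in WT, a log2 fold change of -0.44 ± 0.08 (edgeR adjusted p = 0.00352, 0.0617 with the Xist term and 0.128 without the Xist-positive libraries). Pecam1, an endothelial adhesion gene, averaged 2.44 ± 0.616 CPM in KO and 1.17 ± 0.0758 CPM in WT (1.05 ± 0.20, adjusted p = 0.00432).

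The lipid-anchored relatives Ntm, Iglon5 and Thy1 were all called higher, 3 of 3 tested in a list of 6, where 12% of all tested genes were higher. The count was 2 with the Xist term and 1 without the Xist-positive libraries. Ntm (neurotrimin) averaged 57.2 ± 3.48 CPM in KO and 41.1 ± 2.898 CPM in WT, a log2 fold change of 0.48 ± 0.08 (edgeR adjusted p = 0.00295, 0.054 with the Xist term and 0.0967 without the Xist-positive libraries). Iglon5 and Thy1 were at low levels, with log2 fold changes of 1.20 ± 0.20 and 1.999 ± 0.36. Thy1 rests on 22 to 32 reads per KO library and 6 to 8 per WT library, and its adjusted p was 0.079 without the Xist-positive libraries. Of the larger relatives 1 of 6 tested fell (16.7% called, against 21% of all tested genes, with 9.08% lower). Kirrel3 averaged 2.42 ± 0.41 CPM in KO and 4.22 ± 0.701 CPM in WT (log2 fold change -0.80 ± 0.17, edgeR adjusted p = 0.00756, and 0.124 with the Xist term). The Kirrel3 call also ended without the Xist-positive libraries. In the basigin group Cd47, which signals to phagocytes, rose by 0.30 ± 0.08 on the log2 scale (edgeR adjusted p = 0.0221), a call that ended without KO replicate 1, KO replicate 2 or WT replicate 2 (0.102 with the Xist term, 0.176 without the Xist-positive libraries). Bsg, Nptn and Emb were not called, so 1 of 4 tested was (25%, against 21% of all tested genes).

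**Figure D4:**
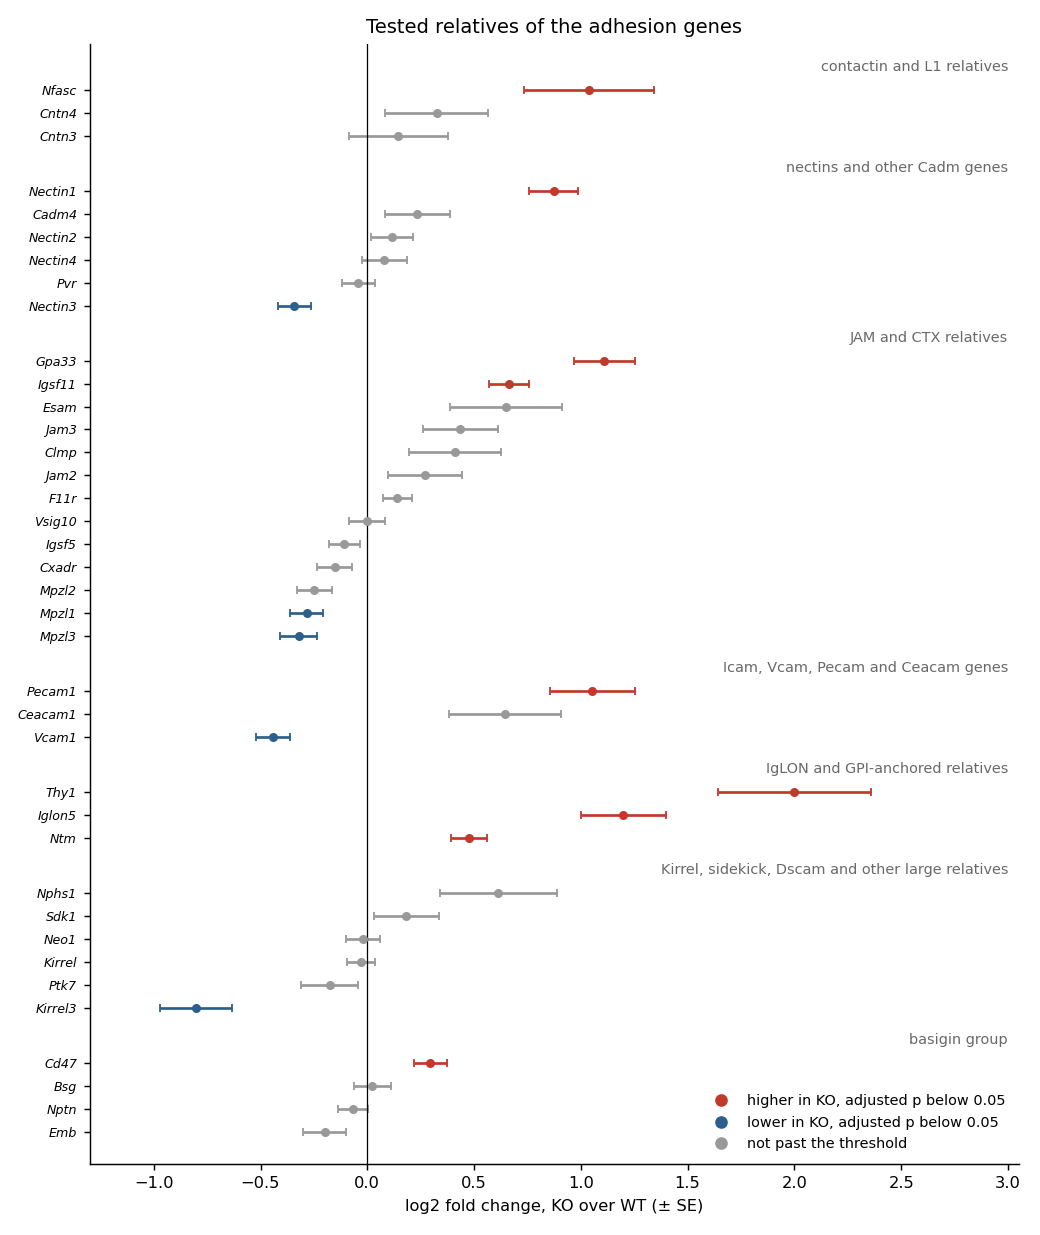
Log2 fold change (KO over WT, linear axis) with its SE for the 38 tested relatives of the adhesion genes, grouped by subfamily, in red where edgeR called the gene higher in KO, in blue where lower and in grey otherwise. The 9 higher genes range from Cd47 (0.30) to Thy1 (1.999) and the 5 lower ones from Kirrel3 (-0.80) to Mpzl1 (-0.28).

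Ligands and receptors of the 10 genes differed in both directions. Of 28 tested ligands and receptors, 8 rose and 4 fell (42.9%, against 21% of all tested genes), with a median log2 fold change of 0.26. Without the Xist-positive libraries 6 were higher and 0 lower. Lama4, a laminin chain to which Mcam binds, averaged 2.73 ± 0.356 CPM in KO and 1.35 ± 0.105 CPM in WT (log2 fold change 1.021 ± 0.16, edgeR adjusted p = 0.00165). Its partner chain gene Lamc1 averaged 198 ± 4.28 CPM in KO and 143 ± 1.16 CPM in WT (0.46 ± 0.07, adjusted p = 0.000828). Wnt5a, another reported ligand of Mcam, averaged 8.29 ± 0.345 CPM in KO and 13.9 ± 1.12 CPM in WT, a log2 fold change of -0.75 ± 0.10 (edgeR adjusted p = 0.000567, and 0.0508 without the Xist-positive libraries). Wnt5a shares 358 exon bases with the opposite-strand model Gm2670. Lama5, the laminin chain that Bcam binds, averaged 467 ± 20.5 CPM in KO and 478 ± 96.7 CPM in WT and was not called (adjusted p = 0.863).

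Itgb2, the shared chain of the leukocyte integrins that bind Icam1, averaged 6.11 ± 0.322 CPM in KO and 10.6 ± 1.26 CPM in WT (log2 fold change -0.80 ± 0.11, edgeR adjusted p = 0.000895, and 0.0639 without the Xist-positive libraries). Its partner chains Itgal and Itgam were at 0.307 and 0.993 CPM in KO and 0.175 and 0.612 CPM in WT and were not called. Of the contactin partners Cntnap1 and Cntnap2, described after their values were seen, 1 was called. Cntnap1, which pairs with contactin 1 at axons, averaged 1.07 ± 0.080 CPM in KO and 1.59 ± 0.125 CPM in WT (log2 fold change -0.56 ± 0.17, edgeR adjusted p = 0.0342). That call ended without any library except WT replicate 1, with the replicate block, with the Xist term (0.132) and without the Xist-positive libraries (0.176). Cntnap2, which pairs with contactin 2, averaged 0.608 ± 0.053 CPM in KO and 0.403 ± 0.074 CPM in WT and was not called (edgeR adjusted p = 0.088). In the same list Ptprz1 was called higher at a low level, 0.491 CPM in KO and 0.155 CPM in WT (1.63 ± 0.30, edgeR adjusted p = 0.00412). Ptprg was called lower, at 94.5 CPM in KO and 120.7 CPM in WT (-0.35 ± 0.07, edgeR adjusted p = 0.00561). With the Xist term the list had 2 lower calls, Wnt5a and Itgb2, so the Ptprg call ended there.

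Of 18 cytoplasmic partners, sialyltransferases and sheddases, edgeR's test called 3 higher and 0 lower (16.7%, against 21% of all tested genes, median log2 fold change 0.05), and 1 higher without the Xist-positive libraries. Ezr (ezrin, which ties membrane proteins to actin) averaged 861 ± 50.6 CPM in KO and 584 ± 49.9 CPM in WT, a log2 fold change of 0.56 ± 0.09 (edgeR adjusted p = 0.00158). St8sia4, a sialyltransferase that adds polysialic acid to Ncam1, averaged 14.1 ± 1.36 CPM in KO and 8.95 ± 1.247 CPM in WT (0.66 ± 0.12, adjusted p = 0.00363, 0.097 with the Xist term and 0.153 without the Xist-positive libraries). St8sia2, the other such enzyme, averaged 131 ± 20.9 CPM in KO and 129 ± 4.04 CPM in WT and was not called (adjusted p = 0.912). Ank2, an ankyrin, had a log2 fold change of 0.50 ± 0.16 (edgeR adjusted p = 0.0438), a call that ended on leaving out any library except KO replicate 2, with limma-voom, with the Xist term (0.169) and without the Xist-positive libraries (0.154). The sheddase genes Adam10, Adam17 and Bace1 and the Cadm1 partner Epb41l3 were not called.

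Of 13 tested genes that NF-kB induces, as it does Icam1, 4 rose and 2 fell (46.2%, against 21% of all tested genes), with a median log2 fold change of 0.14. Without the Xist-positive libraries 3 were higher and 0 lower, and Cxcl2 had an adjusted p of 0.0704. The chemokine gene Ccl2 averaged 15.9 ± 4.40 CPM in KO and 4.62 ± 0.209 CPM in WT (log2 fold change 1.78 ± 0.17, edgeR adjusted p = 6.27e-05), and Ccl20 averaged 145 ± 22.6 CPM in KO and 58.7 ± 13.6 CPM in WT (1.30 ± 0.15, adjusted p = 0.000293). Csf2, a growth factor gene, differed by 1.09 ± 0.18 on the log2 scale and the chemokine gene Cxcl2 by -0.47 ± 0.08 (edgeR adjusted p-values of 0.00216 and 0.00253). Nfkb1, Relb and Tnfaip3 had log2 fold changes of -0.23, -0.06 and -0.15, of which that of Nfkb1 was called (edgeR adjusted p = 0.0405). Nfkbia, Tnfaip2, Birc3 and Nfkb2 went the other way, at 0.28, 0.23, 0.17 and 0.14, of which that of Nfkbia was called (edgeR adjusted p = 0.0454). Traf1 and Cxcl1 stood at -0.09 and -0.08 and were not called. The 4 higher calls of the list were 3 without KO replicate 1, KO replicate 2, WT replicate 1 or WT replicate 2 and with the replicate block. The Nfkb1 call ended without any library except WT replicate 1, with upper-quartile factors, the filter on mean CPM and the replicate block, with the Xist term (0.398) and without the Xist-positive libraries (0.518).

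Endothelium, pericytes and smooth muscle, in which Mcam is known, had the following marker levels beside the lower Mcam of KO. Of 11 tested endothelial markers, edgeR's test called 7 higher and 0 lower at an adjusted p below 0.05 (12% and 9.08% of all tested genes), and their summed level was 44.1 to 51.7 CPM in KO and 26.0 to 29.8 CPM in WT (exact two-sided permutation p = 0.1, the smallest that 3 against 3 allows). Of 9 tested pericyte and smooth muscle markers, 5 were higher and 0 lower at that threshold, beside the same 12% and 9.08%, with a sum of 107.1 to 172 CPM in KO and 107 to 143.4 CPM in WT (exact two-sided permutation p = 0.4). Examples are Plvap, at 2.39 ± 0.446 CPM in KO and 0.943 ± 0.181 CPM in WT, and Cspg4, at 8.34 ± 0.41 CPM in KO and 3.34 ± 0.71 CPM in WT. Without the Xist-positive libraries fewer markers of both lists were called, beside fewer calls over all tested genes. These lists share Kdr, Pecam1 and Pdgfrb with the lists above, and the part of such cells in the levels of Mcam was not tested.

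Neural crest and Schwann cell markers were called higher in 3 of 7 tested genes and lower in 0 at that threshold (12% and 9.08% of all tested genes). The count of 3 became 1 without KO replicate 1, KO replicate 2 or WT replicate 2. Their summed level was 223 to 235 CPM in KO and 189.5 to 211 CPM in WT (exact permutation p = 0.1), of which Mbp and Erbb3 held most. The neural crest factor gene Foxd3 had no read in any library, and Sox10 had 4, 5 and 9 reads in KO and 0, 0 and 1 in WT. The count of called markers also fell without the Xist-positive libraries, as did that of all tested genes. Ngfr averaged 16.3 ± 2.28 CPM in KO and 7.60 ± 0.68 CPM in WT. The part of such cells in the levels of the contactins was not tested.

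For the lists that follow, 12% of all tested genes were higher and 9.08% lower. Leukocyte markers were called higher in 5 of 9 tested genes and lower in 0, with sums of 44.3 to 53.3 CPM in KO and 29.8 to 35.2 CPM in WT. That count was 2 without KO replicate 1 or KO replicate 3, and 3 without KO replicate 2, without WT replicate 2 or with library totals. Podocyte markers were higher in 5 of 8 and lower in 0, with sums of 171 to 206 CPM in KO and 105 to 108 CPM in WT, of which Podxl held 139 in the KO mean and 79.0 in the WT mean. Markers of the collecting duct, where L1cam is known, were higher in 5 of 7 and lower in 0, and in 3 without KO replicate 1 or WT replicate 2. Their sums were 45.0 to 50.6 CPM in KO and 24.0 to 29.6 CPM in WT, while Aqp2, the water channel of principal cells, had 6 to 16 reads in every library. Proximal tubule markers were higher in 6 of 7 and lower in 0, with sums of 185 to 209 CPM in KO and 135 to 142 CPM in WT. They were higher in 4 of 7 without KO replicate 3, and in 4 of the 5 still tested with the filter on mean CPM. Each of these sums gave an exact two-sided permutation p of 0.1. Without the Xist-positive libraries fewer markers of each of these lists were called, beside fewer calls over all tested genes. Their part in the levels of the 10 genes was not tested.

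The marker genes named here, up to 4 of each list, were called higher by edgeR's test with all libraries, with these log2 fold changes. Of the endothelial markers, Plvap stood at 1.34, Kdr at 1.40, Ptprb at 0.80 and Pecam1 at 1.05. Of the pericyte and smooth muscle markers, Cspg4 stood at 1.32, Pdgfrb at 0.91, Rgs5 at 1.11 and Notch3 at 0.60. Among the neural crest and Schwann cell genes, Ngfr stood at 1.10 and Mbp at 0.285, and the Mbp call ended without KO replicate 1, KO replicate 2 or WT replicate 2. Among the leukocyte genes, C1qa, a complement gene of macrophages, stood at 1.000, Cd68 at 0.73, and Lyz2 and C1qb at 0.635 and 0.725. Among the podocyte genes, Cdkn1c stood at 1.04, Podxl at 0.82 and Synpo at 0.555. The collecting duct genes Hsd11b2 and Aqp3 stood at 1.18 and 1.56, and the sodium channel genes Scnn1b and Scnn1g at 0.74 and 0.83. In that list Gata3 was also called higher, at 0.47, and Fxyd4 and Aqp2, at -0.17 and -0.41, were not called. The proximal tubule genes Gatm, Anpep, Ass1 and Hnf4a stood at 1.21, 1.37, 0.42 and 2.17. Lrp2 and Aqp1 were also called higher, at 0.79 and 0.85, and Cubn, at -0.21, was not called. Of the epithelial markers, Pax2 stood at 0.51 and Cdh16 at 0.27, and neither was called with the Xist term. Calls ended on leaving out a single library for C1qb (any except WT replicate 3), Cd68 (KO replicate 1 or 3), Scnn1b (KO replicate 1), Scnn1g (KO replicate 1 or WT replicate 2), Notch3 (KO replicate 2), Pax2 (KO replicate 3) and Cdh16 (KO replicate 1 or 2, or WT replicate 2). Both with the Xist term and without the Xist-positive libraries, Ptprb, Notch3, Mbp, C1qa, C1qb, Synpo, Ass1, Hnf4a, Pax2 and Cdh16 were not called, with adjusted p-values for Hnf4a of 0.213 and 0.154. Cd68 was not called with the Xist term (0.0761).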

How the data were processed

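The authors deposited 1 table of raw read counts per Ensembl gene for each of the 6 libraries, with no normalization. Per the submitters' processing notes, the tools included Trimmomatic 0.38, STAR 2.7.1a and HTSeq 0.11.2, and mm10 was the build. RNA was made into libraries with the TruSeq RNA kit, per the labels' protocols. How strand and multiply mapped reads were handled, and with which annotation, is not given in the sources used here, and reads of overlapping genes on opposite strands may be added together.

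Symbols, coordinates and merged exon lengths came from GENCODE M21 (GRCm38), which matched 48058 of 48526 genes. The 468 others held 0.017% of the counts. The test was that of edgeR 4.0.16 under R 4.3.3 (filterByExpr, TMM factors, quasi-likelihood fit with genotype as the term), with Benjamini-Hochberg adjustment over 17571 genes at 0.05. Each SE was derived from the fold change and its F statistic. CPM use TMM-scaled library sizes. The 16 alternatives changed the scaling, the filter on low counts, the tool (DESeq2 1.42.0, limma-voom 3.58.1), the replicate block or the libraries, 1 choice at a time. The 10 genes, the lists of relatives, partners and markers, and the tests were chosen with earlier results of these data known. All 10 genes were named, then up to 4 called genes per list by smallest adjusted p, and the 4 genes nearest to Mcam and to Cntn2. Other genes were named after their values were seen. Some marker genes are not reported here. The edgeR test was tested on simulated data. A chi-square comparison of replicates gave 25.0 to 85.7 per degree of freedom, above what sampling alone gives. Figures were drawn with matplotlib 3.10.9.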

Additional observations from a re-analysis of the deposited data

How the results depend on the processing

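Over all genes, edgeR called 3698 with all libraries, and between 1683 and 3766 on leaving out 1 library, the lowest without KO replicate 1 and 1933 without KO replicate 3. A term for the Xist-positive libraries gave 1163 calls and leaving them out gave 907. For the 61 relatives the 14 calls became 6 with the Xist term, 6 without the Xist-positive libraries and 9 to 15 without 1 library. For the partner, NF-kB and marker lists the 57 calls became 32, 29 and 42 to 54 in the same order. In both Xist fits the difference rests on KO replicate 1. Its spread was taken from the WT libraries where the Xist-positive ones were left out, and from these and the Xist-positive pair with the term. Calls among the 10 genes numbered 3 or 4 in every alternative. The log2 fold change of Bcam (-0.05) ran from -0.186 to 0.051 on leaving out 1 library and turned positive in 3 such fits (0.033, 0.013 and 0.051 without KO replicate 1, WT replicate 2 and WT replicate 3), and that of Ncam1 (-0.05) ran from -0.083 to 0.019 and turned positive at 0.018 without KO replicate 2, 0.019 without WT replicate 2, 0.022 with the Xist term and 0.021 without the Xist-positive libraries. None of these was called. Same-numbered KO and WT libraries deviated with correlations of 0.042, -0.146 and 0.032, and unlike-numbered ones with correlations from -0.112 to 0.1. With so few libraries these values show no pairing by number and cannot exclude it. The replicate block gave 3594 calls over all genes and 4 among the 10, with Nrcam added. The cause of these shifts was not tested. Depth limits the statements on Nfasc, Thy1 and the other genes below 1 CPM.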
